A study of Mus musculus with 40 samples.

Results

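The tricarboxylic acid (TCA) cycle was followed in mouse liver through 9 of its enzyme genes, Cs, Idh3a, Idh3b, Ogdh, Dlst, Suclg1, Sucla2, Fh1 and Mdh2. They were taken by gene symbol from a table of read counts on 30146 probes for 21448 genes, in which they have 17 probes. Each gene is described by its most counted probe, and its other probes serve as a check. All 9 passed the filter on low counts and were tested.

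The mice were Crl:CD1(ICR), an outbred stock, of wildtype genotype. They received GenX, the ammonium salt of a short-chain perfluorinated ether acid, by gavage in deionized water for 90 days and were housed singly, the controls receiving the water alone. Of the mice dosed, the first 5 by animal number of each sex and dose were profiled, which had received 0 (controls), 0.1 mg/kg of body weight a day (the low dose), 0.5 mg/kg (the middle dose) or 5 mg/kg (the high dose), which makes 8 groups, and each mouse gave a library of its own from a liver section fixed in formalin and embedded in paraffin. The age of the mice is not given in the sources used here. TempO-Seq joins neighbouring DNA probes that have bound the same RNA, and the joined product is amplified, sequenced and counted. Because the values are counts of probes, the level of a gene is compared between mice and not with that of another gene.

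The cycle runs in the mitochondrial matrix. It joins acetyl-CoA, made from fatty acids and from pyruvate, to oxaloacetate, and turns the citrate so formed back into oxaloacetate in steps that hand electrons to the respiratory chain. In liver its intermediates are also drawn off for glucose and fatty acid synthesis, and hepatocytes are rich in mitochondria.

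The library of mouse 355, a female at the middle dose, held 6711981 reads, more than 2 SD below the mean, and was left out. The other 39 held 10341341 to 15562253 reads. Reads of a library gather around multiples of 20.8 to 49.8, which was taken as the number of reads that 1 captured molecule gave, so that a library stands for 287018 to 655905 molecules. The median was 590657 molecules in males at the high dose and 330204 in male controls, and 320570 and 418658 in the same groups of females. Expressed as molecules, the medians per library ran from 4.95 for Idh3a and 6.77 for Mdh2 to 151 for Dlst. Fewer than 5 molecules were found in 20 of the 39 libraries for Idh3a and in 12 for Mdh2. The reads carry no molecular identifiers, so the read totals overstate the precision. Of the 7 hepatocyte markers listed (Alb, Ttr, Apoa2, Serpinc1, Tat, Cps1 and Hnf4a), none was at 0 in any group.

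In the mouse genome GRCm38 (the same assembly as mm10), GENCODE places Cs at chr10:128337734-128362479, Idh3a at chr9:54586334-54604661, Idh3b at chr2:130279309-130284547, Ogdh at chr11:6291633-6356642 and Dlst at chr12:85110833-85134845. Suclg1 lies at chr6:73248382-73276911, Sucla2 at chr14:73525319-73596142, Fh1 at chr1:175600374-175625635 and Mdh2 at chr5:135778480-135790398. All are protein-coding genes. Which exons the probes read is not given in the count table.

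Promoters were searched for letters of factors known to act on mitochondrial genes, in RefSeq starts of GRCm38.p6 as 300 bases from 250 before each start. The table held 13 promoters for 8 of the genes, 6 of them for Ogdh and none for Idh3a. Shown are the ETS match in Dlst and an NRF1 match in Ogdh, genes whose changes are described most fully, and the ETS match in Idh3b for comparison, with the matched letters in capitals and 30 bases in all.
Dlst, chr12:85110823-85110852, + strand: ggccggtctcaCTTCCGGttgctgccgggc
Idh3b, chr2:130284438-130284467, - strand: gaccgcgctcgCTTCCGGcgtcacttcccc
Ogdh, chr11:6292532-6292561, + strand: ctaggtgttgtGCGCATGcgtaactcaact
The ETS letters CCGGAAG, read on either strand, occurred at Dlst and Idh3b and in 8.86% of the 32851 promoters of the table. The NRF1 core GCGCATG occurred at Ogdh and in 3.91% of promoters. The nuclear receptor core AGGTCA, present in 16.26%, occurred at Fh1, Ogdh and Sucla2, and the matches counted for AGGTCA can lie within longer elements. The longer letters TCAAGGTCA (0.42% of promoters) and AGGTCANAGGTCA (0.04%) occurred in none of the 13. Of the genes with the ETS letters, Dlst rose in 3 of the comparisons with controls described below. Idh3b rose in none with edgeR, the main test, but was called in females at the high dose with DESeq2. A match of letters describes the sequence only.

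The livers of treated mice were set against those of the controls of the same sex, to ask at which dose and in which sex transcripts of the cycle differ. In males at the high dose, 4 of the 9 genes rose (Cs, Ogdh, Dlst and Mdh2) and none fell. In males at the middle dose and in females at the high dose, Dlst alone rose. The test was edgeR's quasi-likelihood test on 17877 probes, and a change passed, or was called, when its p after Benjamini-Hochberg adjustment was under 10%. Levels are given as CPM, the reads of the probe per 1000000 reads of the library after TMM scaling, and changes as log2 fold changes. Among the 12412 genes whose most counted probe was tested, 5.59% were called and increased in males at the high dose, 1.88% in males at the middle dose and 2.09% in females at the high dose. The median log2 fold change of the 9 genes was 0.49 in males and 0.37 in females at the high dose, against 0.11 and -0.01 over all genes tested. With DESeq2 in place of edgeR, 4 were called in females at the high dose (Idh3b, Ogdh, Dlst and Suclg1), and the same genes as with edgeR in males. Of the 23058 probes in the DESeq2 fit, 518 were called and increased in females at the high dose. In males 978 were at the high dose and 519 at the middle dose. With the shallow library of mouse 355 in the fit, 1 (Dlst) was called in males at the high dose and none at the middle dose. Calls fell over all probes as well. In that fit 503 of 17247 probes were called and increased in males at the high dose and 79 at the middle dose. Without that library 863 and 311 of 17877 were. The doses of a sex share their control mice, and in a tissue section fewer cells of a type and less RNA per cell cannot be told apart.

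**Figure D1:**
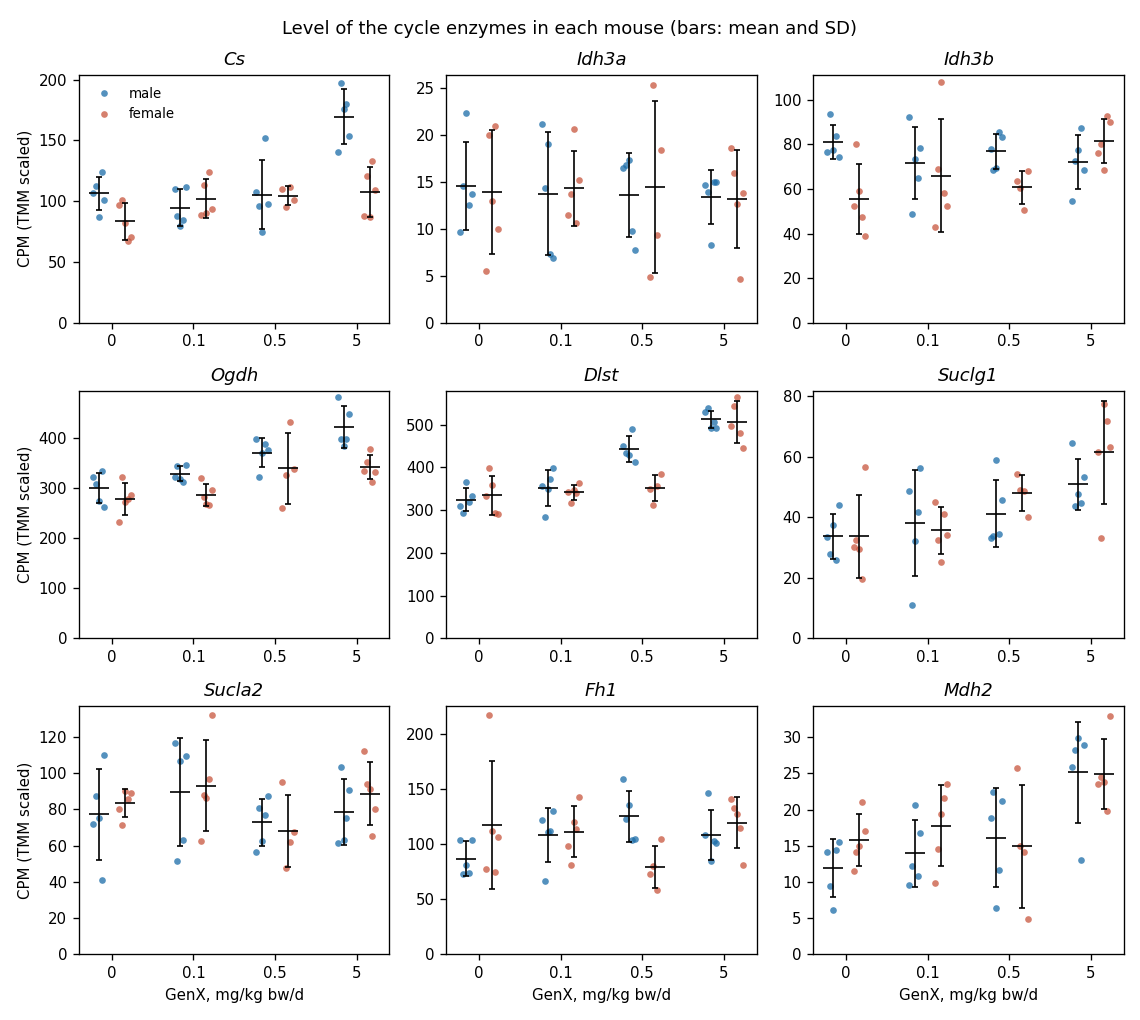
Level of each enzyme's most counted probe in each of the 39 mice, in CPM (TMM-scaled), by dose (evenly spaced) and sex, with black bars for the mean and SD of each group. Dlst at the high dose lies above all controls in both sexes, Cs and Ogdh in males, while Idh3a stays between 4.68 and 25.3 in all groups.

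At the low dose, edgeR called none of the 9 genes in either sex, and none had an unadjusted p below 0.05 there. Of all 12412 genes tested, 1598 had such a p in males and 1191 in females. DESeq2 called none either. Of all genes tested, 0.0403% were called in males and 0% in females in either direction. The log2 fold changes at this dose lay between -0.18 and 0.32 in males and between -0.08 and 0.29 in females, with standard errors of 0.11 to 0.45. The upper 95% limits reached 0.99 (Mdh2) and 0.81 (Idh3a) in males and 0.94 (both genes) in females. Rises in these 2 genes up to those limits were thus not excluded. For the most counted probe of Dlst the limits were 0.35 and 0.26. The second Dlst probe read 0.68 (SE 0.21, 95% interval 0.26 to 1.10) in males at this dose, with 4 of 5 mice above all controls, and was not called (adjusted p = 0.35). At the middle dose in females, where 4 mice remained, edgeR and DESeq2 called none of the 9, and 0.201% of all genes were called in either direction. There 2 of the 9 had an unadjusted p below 0.05 (Ogdh and Fh1), as did 1220 of all 12412 genes.

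Cs encodes citrate synthase, which joins acetyl-CoA and oxaloacetate and opens the cycle. Its level was 107, 113, 87, 124 and 101 CPM in the male controls and 140.1, 197, 176, 179.8 and 153 CPM in males at the high dose. All 5 treated males lay above all controls. The mean rose from 106 ± 13.8 to 169 ± 22.7 CPM (SD, n = 5 each), a log2 fold change of 0.67 (SE 0.17, adjusted p = 0.00796). At the middle dose the males had 107, 95.7, 74.5, 152 and 97.6 CPM, which span the range of the controls, and the log2 fold change was -0.01 (SE 0.17). The step from the middle to the high dose was itself called in males, at 0.68 (SE 0.17, adjusted p = 0.0178), in a comparison where 1.17% of all genes were called and increased. Without mouse 303 the adjusted p of this step was 0.101, and with all 40 libraries in the fit it was 0.382. Females had 96.9, 101, 82.2, 67 and 70.7 CPM as controls and 87.5, 121, 87.1, 133 and 109 CPM at the high dose, with overlap between the groups. The log2 fold change in females was 0.37 (SE 0.17, adjusted p = 0.258).

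Idh3a and Idh3b encode the catalytic alpha subunit and the beta subunit of the NAD-dependent isocitrate dehydrogenase, which makes 2-oxoglutarate. Idh3a did not pass the test in any comparison. Its group means lay between 13.1 and 14.6 CPM, and its log2 fold changes in the 6 comparisons with controls between -0.12 and 0.06. At so few molecules the intervals were wide, from -1.02 to 0.77 in males at the high dose. Idh3b had 76.4, 93.5, 77.3, 83.7 and 74.4 CPM in male controls and 54.6, 72.6, 77.6, 87.2 and 68.4 CPM in males at the high dose, a log2 fold change of -0.17 (SE 0.20). In females it had 52.4, 80.1, 59.1, 47.5 and 38.9 CPM as controls and 76.2, 80.0, 68.8, 92.8 and 89.9 CPM at the high dose. The log2 fold change of 0.55 (SE 0.20) did not pass the test (adjusted p = 0.188), and 2 of the treated females lay above all controls. The female and male effects of Idh3b at the high dose differed by 0.72 (SE 0.29, adjusted p = 0.253), and the control females differed from the control males by -0.54 (SE 0.20, adjusted p = 0.188). With edgeR neither difference was called, and with DESeq2 the one between controls was.

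Ogdh and Dlst encode parts of the 2-oxoglutarate dehydrogenase complex, which makes succinyl-CoA. Ogdh is the subunit that removes carbon dioxide, and Dlst is the core subunit that passes the succinyl group to coenzyme A. Dlst was the only one of the 9 called in more than 1 of the comparisons with controls. Its level was 309.8, 293, 365, 318 and 333 CPM in male controls. The males had 356, 284, 350.4, 373 and 398 CPM at the low dose, 449, 434, 429, 491 and 412 CPM at the middle dose, and 529, 538, 493, 507 and 492 CPM at the high dose. The males at the low dose overlapped the controls, all males at the middle dose lay above all controls, and all males at the high dose lay above all males at the middle dose. The log2 fold changes were 0.12 (SE 0.11, adjusted p = 1), 0.45 (SE 0.12, adjusted p = 0.0249) and 0.66 (SE 0.12, adjusted p = 4.13e-05). The step from the middle to the high dose was 0.21 (SE 0.11) and was not called (adjusted p = 0.415).

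Female controls had 333, 398, 358, 293 and 289.8 CPM of Dlst. Females had 342, 315, 346, 340.4 and 362 CPM at the low dose, 350.5, 311, 356 and 385 CPM at the middle dose, and 496, 544, 565, 479 and 446 CPM at the high dose. In this sex the 2 lower doses lay within the controls and all mice at the high dose lay above all others. The log2 fold changes were 0.03, 0.07 and 0.60, with an SE of 0.12 at the middle and high doses and an adjusted p of 0.000452 at the highest dose. The step from the middle to the high dose was called at 0.53 (SE 0.12, adjusted p = 0.0133), in a comparison where 0.628% of all genes were called and increased, and without mouse 352 its adjusted p was 0.106. The effect at the middle dose was lower in females by 0.38 (SE 0.17) but the difference between the sexes was not called (adjusted p = 0.389).

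Ogdh in males had 322, 309, 274, 333 and 263 CPM as controls, 397, 322, 370.1, 388 and 376 CPM at the middle dose and 482, 398, 383, 397 and 447 CPM at the high dose. At the middle dose 4 of 5 mice, and at the high dose all 5, lay above all controls. The log2 fold change was 0.30 (SE 0.12, adjusted p = 0.259) and 0.49 (SE 0.12, adjusted p = 0.0062). In females Ogdh had 233, 322, 272, 278 and 287 CPM as controls and 334, 352, 378, 313 and 332 CPM at the high dose, where the groups overlapped in 1 treated mouse and the log2 fold change was 0.30 (SE 0.12, adjusted p = 0.258).

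Suclg1 encodes the alpha subunit of succinyl-CoA ligase, which makes succinate and is shared by both forms of the enzyme, and Sucla2 the beta subunit of the form that makes ATP. Suclg1 had 30.2, 32.4, 29.4, 19.6 and 56.7 CPM in female controls and 61.5, 33.2, 77.4, 71.6 and 63.1 CPM in females at the high dose. In all but 1 of the treated females it lay above every control. Its log2 fold change of 0.87 (SE 0.28) was just outside the threshold (adjusted p = 0.102). In males it had 33.4, 27.8, 37.4, 26 and 44 CPM as controls and 64.5, 43.8, 47.7, 44.7 and 53.2 CPM at the high dose, a log2 fold change of 0.59 (SE 0.28, adjusted p = 0.209). Sucla2 had group means of 68.1 to 93 CPM and log2 fold changes of 0.03 in males and 0.09 in females at the high dose (SE 0.23 each), with 95% intervals of -0.43 to 0.49 and -0.37 to 0.55.

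Fh1 encodes fumarase, which adds water to fumarate, and Mdh2 the mitochondrial malate dehydrogenase, which returns malate to oxaloacetate. Fh1 had 104, 72.8, 81.1, 73.7 and 104 CPM in male controls and 159, 123, 136, 104 and 104 CPM in males at the middle dose. The lowest treated males lay just above the highest controls, and the log2 fold change of 0.53 (SE 0.22) did not pass the test (adjusted p = 0.259). At the high dose it was 0.32 (SE 0.22) in males and 0.03 (SE 0.22) in females. Female controls had 77.2, 217, 112, 74.3 and 106 CPM, and the highest of them, mouse 152, moved the female values: at the middle dose the log2 fold change was -0.57 (SE 0.24, adjusted p = 0.485) and without that mouse -0.22, and at the high dose it was then 0.37 in place of 0.03.

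Mdh2 had 14.2, 9.46, 6.09, 14.4 and 15.5 CPM in male controls and 25.9, 28.3, 29.9, 13 and 28.9 CPM in males at the high dose. Expressed as molecules, these male controls held only 1.95 to 5.06 each. Mouse 404, with 13 CPM, lay within the controls, and the other 4 treated males lay above all of them. The log2 fold change was 1.08 (SE 0.38, adjusted p = 0.0897), the largest of the 9 and the closest of the calls to the threshold: without single mice its adjusted p ran from 0.0471 (without mouse 404) to 0.217, and the call held in 2 of 10 such fits. In females Mdh2 had 11.6, 14.2, 15, 21.1 and 17.1 CPM as controls and 23.5, 24.5, 23.8, 19.7 and 32.9 CPM at the high dose, with 4 of 5 above all controls and a log2 fold change of 0.66 (SE 0.38, adjusted p = 0.431).

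**Figure D2:**
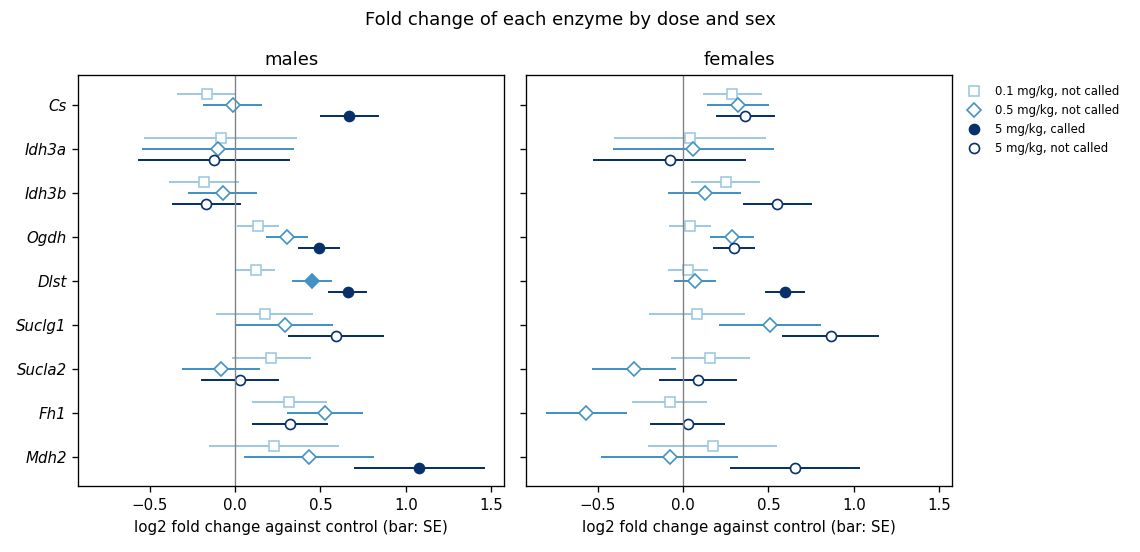
Log2 fold change of each enzyme's most counted probe against the control mice of the same sex, with bars for 1 SE, in males (left) and females (right), filled where the change was called and open where it was not. The 4 filled circles at the high dose in males are Cs (0.67), Ogdh (0.49), Dlst (0.66) and Mdh2 (1.08), the only filled one in females is Dlst (0.60), and the only filled diamond, at the middle dose, is Dlst in males (0.45).

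Counted without a model, 3 of the 9 genes (Cs, Ogdh and Dlst) had all treated males above all controls at the high dose, where this held for 5.93% of all genes. At the middle dose in males it held for 2 of the 9 (Dlst and Fh1) against 2.34% of all genes, in females at the high dose for 1 (Dlst) against 2.13%, and in females at the middle dose for none against 0.991%. No difference between the sexes in the effect of GenX was called by edgeR in any of the 9 at any dose. At the middle dose, 2 of the 9 had an unadjusted p below 0.05 for that difference (Dlst and Fh1), at the high dose 1 (Idh3b), and at the low dose none. Fh1 at the middle dose, whose female and male effects differed by -1.09 (SE 0.33, adjusted p = 0.191), was the only one called by DESeq2. Of all genes, 0% were called for this difference at the low dose, 0.322% at the middle dose and 1.19% at the high dose. An unadjusted p below 0.05 for it was found in 990, 1333 and 1563 of the 12412 genes at these doses. Between control females and males edgeR called none of the 9 by the most counted probe, where 3.89% of all genes were called. In that comparison 2 of the 9 had an unadjusted p below 0.05 (Cs and Idh3b), as did 2347 of all 12412 genes. DESeq2 called Idh3b there.

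The other probes of the same genes gave values of their own. Of the 8 other probes, 2 rose in males at the middle dose, in males at the high dose and in females at the high dose, in each case those of Dlst and Suclg1. Of all 17877 probes tested, 311, 863 and 327 were called and increased in these comparisons. The second Dlst probe read 46.5 ± 7.5 CPM in male controls, 99.7 ± 15.3 at the middle dose and 126 ± 33.7 at the high dose (SD, n = 5 each), with no overlap between treated males and controls. Its log2 fold changes were 1.10 (SE 0.21, adjusted p = 0.00101) and 1.43 (SE 0.21, adjusted p = 1.8e-06) in males at these doses and 0.73 (SE 0.21, adjusted p = 0.0399) in females at the high dose. The second Suclg1 probe, nearly as much counted as the first, rose by 1.12 (SE 0.25, adjusted p = 0.00628) and 1.09 (SE 0.25, adjusted p = 0.00212) in males at the middle and high doses and by 0.79 (SE 0.25, adjusted p = 0.0796) in females at the high dose. Both probes of Dlst were thus called in the same 3 comparisons, while for Suclg1 only the second probe was called in this fit. The second Dlst probe also differed between control females and control males, with 73.7 ± 24.9 and 46.5 ± 7.5 CPM (log2 difference 0.66, SE 0.21, adjusted p = 0.0854).

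For Cs, Ogdh and Fh1 the other probes did not pass the test. The second Cs probe changed by 0.26 (SE 0.29) in males at the high dose. The second Ogdh probe, with 332 ± 15.6 CPM in male controls and 339.8 ± 44.1 CPM at the high dose (SD, n = 5 each), gave 0.03 (SE 0.15), although it was counted about as often as the first, and the third gave 0.38 (SE 0.23). The second Fh1 probe gave -0.55 (SE 0.27) where the first gave 0.32. The second probes of Idh3a and Mdh2 were at 0 in 34 and 26 of the 39 libraries and give no values to compare.

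The ratio of a gene's probes within a library does not depend on how libraries are scaled. It was compared between treated and control mice, after these values had been seen, by exact two-sided permutation tests, with p adjusted over 24 comparisons of 6 probe pairs. In males the log2 ratio of the second to the first Dlst probe rose by 0.65 at the middle dose and by 0.75 at the high dose, each with an exact p of 0.0159 and an adjusted p of 0.0635. For Ogdh the log2 ratio of the second to the first probe fell by 0.47 in males at the high dose, with no overlap (exact p = 0.00794, the smallest that 5 against 5 mice can give, adjusted p = 0.0635). For Fh1 it fell by 1.14 and 0.87 at the middle and high doses in males, and for Suclg1 it rose by 0.81 in males at the middle dose, all with an exact p of 0.0159 and an adjusted p of 0.0635. In females none of the 12 comparisons passed an adjusted p of 10%, and the lowest was 0.208. For these 4 genes in males, the change thus differed between the 2 probes at an adjusted p under 10%, in comparisons made after the values had been seen. Treated and control males overlapped in all of these except that of Ogdh. At the high dose in males, the Suclg1 pair (adjusted p = 0.127) and the third Ogdh probe against the first (adjusted p = 0.705) did not pass. Whether the probe ratios changed more in males than in females was not tested.

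**Figure D3:**
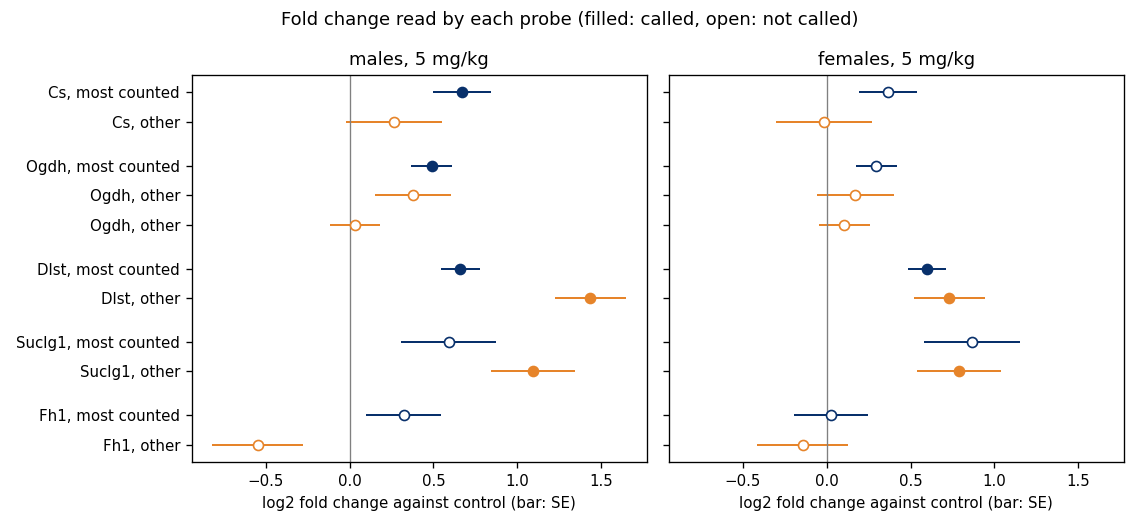
Log2 fold change at the high dose against control read by the most counted probe (blue) and by each other probe (orange) of 5 of the enzymes, with bars for 1 SE, filled where called. In males the Dlst probes read 0.66 and 1.43, the Ogdh probes 0.49, 0.38 and 0.03, and the Fh1 probes 0.32 and -0.55.

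Other enzymes of the cycle were read from 8 further genes, 7 of which were tested (Idh3g, Idh2, Suclg2, Sdha, Sdhc, Sdhd and Dld). In males at the high dose 2 of the 7 rose and none fell, and in females 2 rose and none fell (Idh2 and Suclg2 in both), with median log2 fold changes of 0.37 and 0.36. Of all genes, 5.59% were called and increased in males and 2.09% in females. Idh2, the NADP-dependent mitochondrial isocitrate dehydrogenase, rose by 1.08 in males (SE 0.18, adjusted p = 2.16e-05) and by 0.65 in females (SE 0.18, adjusted p = 0.0318), though in females 2 of 10 fits without single mice, those without control mice 151 and 153, lost the call. Suclg2, the beta subunit of the ligase form that makes GTP, rose by 0.55 (SE 0.13, adjusted p = 0.00262) in males and 0.64 (SE 0.13, adjusted p = 0.000724) in females. Of the succinate dehydrogenase subunits, Sdha, Sdhc and Sdhd gave 0.13, 0.11 and 0.63 in males and 0.29, 0.36 and 0.53 in females, none called. Dld, the remaining subunit of the complex of Ogdh and Dlst, gave 0.29 and 0.33, also not called.

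**Figure D4:**
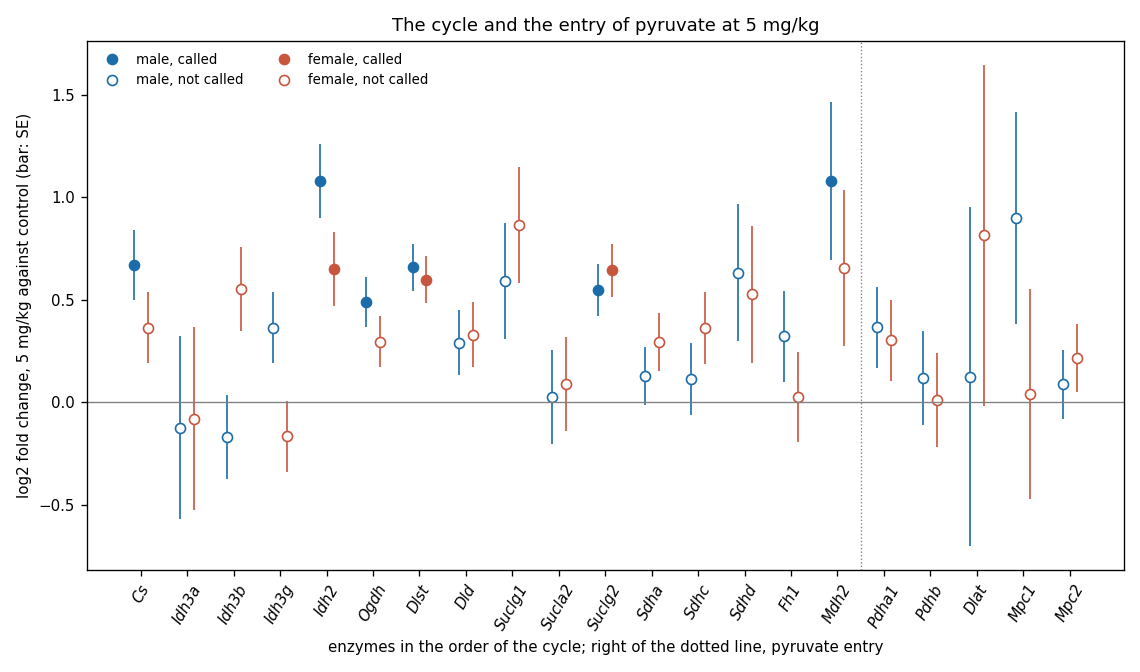
Log2 fold change at the high dose against control for the tested enzymes in the order of the cycle, and for pyruvate entry right of the dotted line, in males (blue) and females (red), with bars for 1 SE, filled where called. Filled points are Cs, Idh2, Ogdh, Dlst, Suclg2 and Mdh2 in males and Idh2, Dlst and Suclg2 in females, and no enzyme of pyruvate entry is filled.

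Enzymes or subunits of the same step were compared within each library as log2 ratios, chosen after the values had been seen, with exact permutation tests adjusted over 10 comparisons of 5 gene pairs. Idh2 gained on Idh3b by 1.27 in males at the high dose with no overlap between treated and control mice (exact p = 0.00794, adjusted p = 0.0397), and by 0.10 in females (exact p = 0.73). Suclg2 gained on Sucla2 by 0.56 in females with no overlap (exact p = 0.00794, adjusted p = 0.0397), and by 0.48 in males (exact p = 0.135, adjusted p = 0.225). Ogdh lost 0.30 against Dlst in females (exact p = 0.0159, adjusted p = 0.0529) and 0.17 in males (exact p = 0.206). The ratios of Suclg1 to Sucla2 and of Idh3a to Idh3b did not pass in either sex. Whether these ratios differ between the sexes was not tested.

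The supply of the cycle and its surroundings gave the counts below. For comparison, of all 12412 genes edgeR called 694 higher and 466 lower in males at the high dose, and 260 and 248 in females. An unadjusted p below 0.05 was found for 2831 of all genes in males and 2238 in females. Of 10 genes of pyruvate entry (the pyruvate dehydrogenase complex and its phosphatases, pyruvate carboxylase and the pyruvate carrier), edgeR and DESeq2 called none in either sex at the high dose and none had an unadjusted p below 0.05. Their median log2 fold changes were 0.10 and 0.15. Of the 5 cytosolic enzymes of related steps, 1 rose in each sex with edgeR, Me1, the malic enzyme that makes NADPH, by 2.31 (SE 0.31, adjusted p = 2.86e-07) in males and 2.29 (SE 0.31, adjusted p = 7.53e-07) in females. With DESeq2, Aco1 was also called lower in males and Idh1 higher in females. Of 13 genes for the mitochondrial membranes and protein import, 5 rose in males and 4 in females at the high dose and none fell. Among them the matrix chaperone Hspd1 rose by 1.31 (SE 0.25, adjusted p = 0.00015) in males and 0.81 (SE 0.25, adjusted p = 0.0589) in females, a call that 5 of 10 fits without single mice lost. The import motor Hspa9 rose by 0.68 and 0.54, the prohibitin Phb2 by 0.64 and 0.56, and the import receptor Tomm20 by 0.82 in males with 0.09 in females. Of 7 regulators of mitochondrial genes (Ppargc1a, Ppargc1b, Esrra, Nrf1, Gabpa, Tfam and Ppara), edgeR and DESeq2 called none in either sex at the high dose, and 2 had an unadjusted p below 0.05 in males and none in females.

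Markers of liver cells also moved at the high dose. Of the 7 hepatocyte markers, Serpinc1, Cps1 and Hnf4a fell in both sexes, by 0.74, 1.18 and 0.80 on the log2 scale in males and by 0.32, 1.02 and 0.56 in females. The summed level of the 7 was 11564 to 12726 CPM in male controls and 9618 to 11413 CPM in males at the high dose, and in females 12885 to 14162 and 11162 to 13791 CPM. In males, Col1a1 and Col3a1 of the 6 stellate cell and fibroblast markers rose (sum 92.4 to 176 CPM in controls, 196 to 248 CPM treated), Clec4g of the 6 endothelial markers fell (165 to 193 CPM, then 97.6 to 170.5 CPM, with Lyve1 at 0 in the latter), and Top2a of the 5 proliferation markers rose from 0 in all controls (sum up to 4.77 CPM in controls, 37 to 89.9 CPM treated). The Kupffer cell markers summed to 49 to 109 CPM in male controls and 46.6 to 68.2 CPM in males at the high dose. Marco was at 0 in males at the high dose and also at the low and middle doses. Cholangiocyte and lymphocyte markers stayed under 12 CPM in male controls and in males at the high dose. Epcam, Sox9 and Ms4a1 were at 0 in both of these groups, Krt7 only in the controls and Cd3e only in the treated males. In females none of these nonparenchymal or proliferation markers was called. The proliferation markers there summed to 1.97 to 10.8 CPM (median 5.36) in controls and 0 to 55.5 CPM (median 8.43) at the high dose. The part of these shifts, and of the larger number of molecules in males at the high dose, in the values of the cycle genes was not tested. With counts expressed as molecules, the same 4 genes as with reads (Cs, Ogdh, Dlst and Mdh2) were called in males at the high dose. In that fit 896 of the 5335 probes tested were called and increased. It divides each library by a constant and scales it again, so it cannot show what part the number of molecules has.

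Over the 39 mice, the log2 CPM of the 9 genes were only loosely related to each other. Pearson's r between pairs of them ran from -0.29 (Ogdh and Sucla2) to 0.65 (Ogdh and Dlst), with a median of 0.19 over the 36 pairs. After the mean of each group was subtracted, the median was 0.05 and r for Ogdh and Dlst was 0.12. Among 12403 other genes, those most like the mean of the 9 were Abhd6, a lipase for monoacylglycerols (r = 0.79), Acot1, an acyl-CoA thioesterase (0.75), Hadhb, a subunit of the mitochondrial trifunctional protein of fatty acid oxidation (0.74), Hsd17b4, a peroxisomal enzyme of the same kind of oxidation (0.72), and the keratin Krt23 (0.72). Krt23 ranked 7 in place of 5 when the count added before taking logs was 0.5 in place of 2, and the other genes named kept their ranks. After subtraction of the group means the r of these genes lay between 0.11 and 0.49. These values describe 39 mice that share doses, and the genes share libraries.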

How the data were processed

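The deposited table holds raw read counts per probe for 40 libraries, with no filter, normalization or pooling stated by the authors. Reads came from liver sections measured with TempO-Seq, and the submitters' processing notes name bcl2fastq 2.17.1.14, Bowtie and the mouse build mm10. All columns were mapped to mice by animal number, no library was identical to another, and group labels came from the sample records.

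Mouse 355 was left out because its total lay more than 2 SD below the mean of 13041142 reads, the study's own criterion. Counts of the other 39 were scaled by TMM, filtered with filterByExpr and fitted with edgeR 4.0.16 (limma 3.58.1, R 4.3.3) in a single quasi-likelihood model of 8 groups, with Benjamini-Hochberg adjustment over 17877 probes (12418 genes) and a threshold of 10%. DESeq2 1.42.0 was an alternative. Ratios within a library were tested with exact two-sided permutation tests (scipy 1.17.1) after adding 1 read to each count. Log2 CPM for correlations used a prior count of 2. Gene positions came from GENCODE and promoter sequences from RefSeq. The fits were run on simulated counts. The changes put into them were larger than most of those reported here and lay only in probes counted more than those of Idh3a and Mdh2. The simulated reads did not gather around multiples. The simulation therefore cannot show how the fits treat small changes, low counts or such gathering.

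The genes and the companion lists were chosen with earlier results of these data known. The 9 genes are all named, and of each companion list at most 4 of the genes called at the middle or high dose were to be named, by the largest log2 fold change, and of genes with a similar pattern the 5 with the highest r. Where more are named, as for the other cycle enzymes, the regulators and the markers, they were chosen after their values were seen or to show a whole list. Each mouse is a separate animal. The p-values of the fits rest on a spread between mice that is estimated over all 8 groups and drawn toward that of other probes. They do not measure the spread of the compared groups alone. An item of the companion lists is not reported here.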

Additional observations from a re-analysis of the deposited data

Results flagged for a closer look

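Among 72 sets of the 9 genes and 8 groups, 3 held a mouse that stood apart from the others of its group by Dixon's criterion, which chance meets in about 1 in 20 sets. Fh1 read 217 CPM in female control mouse 152, the other controls lying between 74.3 and 112 CPM. Mdh2 read 13 CPM in mouse 404, a male at the high dose, where the others lay between 25.9 and 29.9 CPM. Idh3a read 8.24 CPM in male 403 of the high dose, where the others lay between 13.9 and 15 CPM.

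Aco1, the cytosolic aconitase, was singled out after its values were seen. The effect of GenX in females exceeded that in males by 1.71 on the log2 scale at the middle dose (SE 0.43, adjusted p = 0.0897) and by 1.47 at the high dose (SE 0.42, adjusted p = 0.0953). With edgeR none of its log2 fold changes against controls was called, -0.62 and -0.77 being those of males and 1.09 and 0.70 those of females. DESeq2 called the fall in males at the high dose. Control males read 87.9 CPM and control females 33.5 CPM, a log2 difference of -1.39 (adjusted p = 0.00282). The comparisons share these control mice.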

How the results depend on the processing

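In males at the middle dose, where Dlst alone was called, 0 of the 9 were called without the low-count filter, 0 with all 40 libraries and 2 (Dlst and Suclg1) with probes summed by gene. Called and increased in these fits were 353 of 23058 probes, 79 of 17247 probes and 259 of 12515 genes. In males at the high dose 1 (Dlst) was called with all 40 libraries, and Cs and Ogdh then had adjusted p of 0.194 and 0.221. In that fit 503 of 17247 probes were called and increased in these males. In females at the high dose, in place of 1, 2 were called with DESeq2 size factors (Dlst and Suclg1), 2 with summed probes, 4 with the DESeq2 Wald test and 4 with counts in molecules (Idh3b, Ogdh, Dlst and Suclg1 in both), and 1 to 2 without single mice. With counts in molecules, 506 of the 5335 probes tested were called and increased in these females. With DESeq2 size factors 340 of 17877 probes were, and with the Wald test 518 of 23058. When summed, 280 of 12515 genes were. Mdh2 in males at the high dose lost its call with DESeq2 size factors (adjusted p = 0.125), without the filter (0.200), with all 40 libraries (0.192) and summed (0.111), and Ogdh there when summed (0.157). The step of Dlst from the middle to the high dose in females lost its call when fitted on those groups alone (0.125), and that of Cs in males with all 40 libraries (0.382). Suclg1 in males at the high dose was called when only the compared groups were fitted and when probes were summed (0.00478).

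Directions turned as follows. Sucla2 in males at the high dose became -0.051 with DESeq2 size factors, -0.051 with the Wald test and -0.030 in molecules, Idh3a in females at the middle dose -0.026 summed, Idh3b there -0.18 with all 40 libraries, and Fh1 in females at the high dose -0.030 summed. Without single mice, values at the middle dose in males ran from -0.18 to 0.088 (Cs), -0.22 to 0.11 (Idh3a) and -0.24 to 0.078 (Sucla2), and at the high dose from -0.24 to 0.082 (Idh3a) and -0.13 to 0.19 (Sucla2). In females they ran from -0.36 to 0.35 (Idh3a) and -0.48 to 0.21 (Mdh2) at the middle dose, and from -0.28 to 0.14 (Idh3a), -0.011 to 0.18 (Sucla2), -0.10 to 0.37 (Fh1) and -0.039 to 0.16 (Tomm20) at the high dose. The ratio of Idh3a to Idh3b in males ran from -0.061 to 0.27 and that of Idh2 to Idh3b in females from -0.026 to 0.25. None of these was called. The cause was not tested.

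Of 262 alternative values for 38 results on the 9 genes, 234 kept direction and side of the threshold. Of the others, 11 lost a call, 11 gained one and 6 turned direction. Many of the 38 were far from the threshold in the main fit and had little room to change side. Of 7 settings, the call in males at the high dose held in 6 for Cs, 5 for Ogdh, 7 for Dlst and 3 for Mdh2. That of Dlst held in 5 in males at the middle dose and in 7 in females at the high dose. The steps of Cs in males and Dlst in females held in 6 each. The calls of Cs, Ogdh and Dlst in males at the high dose and of Dlst in males at the middle and females at the high dose held in 10 of 10 fits without single mice each. Idh3a could not be tested in molecules. The number of molecules per library limits Idh3a and Mdh2. No paired analysis was possible because the replicate numbers are animal numbers, which no 2 groups share.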

Other observations

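The library of mouse 355, left out above, read 2684 reads of Dlst, 1456 of Fh1, 579 of Ogdh, 162 of Idh3a, 111 of Cs, 59 of Sucla2, 41 of Idh3b, 15 of Mdh2 and 0 of Suclg1, of 6711981 in all.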
